A study of Mus musculus with 6 samples.

Results

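The TGF-beta and BMP signalling genes described here are 10 named genes of 21853 protein-coding genes with an annotated start: the ligands Tgfb1, Tgfb2, Inhba and Bmp4, the receptors Tgfbr1 and Tgfbr2, the intracellular mediator Smad3, the inhibitor Smad7, and the target genes Id1 and Id2. The rule names the genes and uses no measured value, but the choice was made with earlier results of these data known. Their chromatin was measured by single-cell ATAC-seq, in which a transposase cuts accessible DNA and each cut end is read together with a cell barcode. The cells were lineage-traced horizontal basal cells (HBCs), a reserve of quiescent stem cells lying against the basal lamina of the mouse olfactory epithelium. All 6 libraries came from Krt5CreER; Rosa26LSL-YFP/LSL-YFP mice, in which a Krt5-driven, tamoxifen-inducible Cre recombinase turns on YFP, and from YFP-positive cells sorted out of dissected dorsal epithelium. The trace also labels other cells in which Krt5 was active and the descendants of traced cells. The uninjured group held 3 libraries from untreated controls, and the injured group 3 libraries taken 24 h after an intraperitoneal injection of methimazole, a drug that destroys much of the epithelium above the HBCs. In both groups replicate 1 was 8 weeks old, replicate 2 was 6 weeks old and replicate 3 was 6 to 7 weeks old. The labels call these biological replicates and say that the tissue of each animal was handled separately.

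Ligands of this family bind a pair of serine/threonine kinase receptors, and the activated type I receptor phosphorylates SMAD proteins, which join Smad4 and act on genes in the nucleus. TGF-beta and activin signals run through Smad2 and Smad3, BMP signals through Smad1, Smad5 and Smad9, and Smad7 holds back the activated receptors. In stratified epithelia TGF-beta is known for restraining the division of basal cells and BMP for favouring differentiation, and Gdf11, another member of the family, is known to limit the making of neurons in the olfactory epithelium. Accessibility is a property of the DNA and not a level of RNA or protein.

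Barcodes with at least 2000 fragments numbered 454 to 889 in the uninjured libraries and 420 to 1338 in the injured ones, and carried from 14825320 to 44875242 cut sites per library. The HBC marker list was open in every library, with summed counts-per-million (CPM) values over gene bodies of 802.5 to 942.7 in uninjured and 714.5 to 821.6 in injured libraries. Olfactory neuron markers ran from 120.7 to 217.4 in 5 libraries and reached 259.6 in injured replicate 3, where 12.3% of the clustered cells were olfactory sensory neuron-like and 52.1% HBC-like. The HBC-like share was 91.6% and 78.2% in injured replicates 1 and 2 and ran from 51.8% to 73.7% in the uninjured libraries. Sustentacular markers (160.6 to 179.7 against 121.5 to 159.6) and gland markers (82.0 to 97.1 against 58.3 to 69.2) did not overlap between the groups and were lower after injury. Mesenchymal markers (87.1 to 96.9 against 98.1 to 104.9) and immune markers (50.1 to 54.2 against 54.8 to 56.4) did not overlap either and were higher. All these marker sums are CPM of all cut sites, a scale on which the median log2 change of all gene starts was -0.24. Uninjured replicate 3 and injured replicate 3 shared 34 barcodes, and in the median shared barcode 97.3% of the fragments of the smaller copy were identical to fragments of the larger one. Other pairs of libraries shared 0 to 4 barcodes, and 1 barcode of injured replicate 2 alone held 14.7% of that library's fragments. Leaving out the smaller copies of shared barcodes kept the direction and call of every start and tile named below. Leaving out barcodes over 100000 fragments lost the calls of the Smad7 start (adjusted p = 0.0599, edgeR), the named Tgfbr2 tile (0.0551), the named Id2 tile (0.053) and the pathway starts of Itgb6 (0.0546), Acvr2b (0.055) and Zfyve9 (0.0741). None of these lost calls changed direction.

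Accessibility at a start was measured as cut sites within 1 kb on either side, in CPM after TMM scaling (normalised CPM). The 10 genes have 18 annotated starts, though the windows of neighbouring starts overlap at Id2 and at Smad7. All 18 starts passed the filter on low counts. Of these, 1 was higher after injury and 2 were lower by edgeR's quasi-likelihood test, with Benjamini-Hochberg adjustment over all 24623 starts tested and a threshold of 0.05. Over all starts tested, 2.47% were higher and 2.34% lower. The groups did not overlap at 6 of the 18 starts, against 27.8% of all starts. The median log2 change was 0.04 over the starts of the 10 genes and 0.01 over all starts. Scaling on 10 kb bins shifted the median of all starts to -0.50, with 460 starts higher and 11187 lower, and scaling on total cut sites shifted it to -0.24, with 690 higher and 7103 lower. Among the 18 starts these scalings called 1 higher with 10 lower and 1 higher with 8 lower, and the starts of Tgfb1, Tgfb2, Bmp4 and Tgfbr2 then had negative differences, that of Tgfb1 past the threshold on 10 kb bins (-0.42, adjusted p = 0.0372, edgeR). Every change at a start given below is therefore relative to the median start. Library sums do not tell fewer cells of a type from less open DNA per cell, so values within HBC-like cells are given beside the calls.

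Among the ligands, the one change past the threshold was at an internal start of Inhba, which encodes the subunit of activin A. This start lies at position 16014475 of chromosome 13 (GRCm38) and 2624 bp downstream of the first. Its window held 0.122, 0.657 and 0.517 normalised CPM in the uninjured libraries, in order of replicate number, and 5.52, 4.84 and 1.54 in the injured ones, from 2, 23 and 18 against 220, 101 and 54 cut sites. Every injured library lay above every uninjured one, and injured replicate 3 was the lowest of the injured libraries. With 2 cut sites in uninjured replicate 1, this start could pass the filter on low counts through the injured libraries alone. The log2 change was 3.07 ± 0.55 (SE, n = 3 per group; adjusted p = 0.0106, edgeR). Without injured replicate 1 the edgeR adjusted p was 0.051 and without injured replicate 2 it was 0.0622, with log2 changes of 2.76 and 2.92. In HBC-like cells the same window rose from 0.587 ± 0.33 to 4.20 ± 1.96 CPM (SD, n = 3), and the adjusted p of the edgeR fit to these cells was 0.00187.

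The first start of Inhba, at position 16011851, stood at 17.6, 19.6 and 18.8 normalised CPM in uninjured and 20.4, 18.2 and 17.1 in injured libraries. The groups overlapped, and the log2 difference of -0.01 ± 0.11 (SE) did not pass the test (adjusted p = 0.964, edgeR). It passed as lower when scaled on 10 kb bins (-0.52, adjusted p = 0.00803, edgeR), which shift all starts downwards. The 2 starts of the gene thus gave different readings in the same libraries, and the first remained the more accessible in each of them.

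Tgfb1, the main TGF-beta ligand, has 1 start at position 25687002 of chromosome 7. It held 17.7, 16.9 and 16.2 normalised CPM in uninjured and 16.8, 20.4 and 17.2 in injured libraries, a log2 difference of 0.10 ± 0.11 (SE; adjusted p = 0.649, edgeR). The start of Tgfb2, a second TGF-beta ligand, at position 186705989 of chromosome 1, held 13.8, 15.2 and 12.4 against 18.2, 15.6 and 12.8 (0.17 ± 0.14; adjusted p = 0.519). Both pairs of groups overlapped. Bmp4, a BMP ligand, had the least accessible first start of the 10 genes, at 6.89, 6.20 and 2.56 against 4.62, 7.29 and 4.79 normalised CPM (0.10 ± 0.34; adjusted p = 0.893, edgeR). Uninjured replicate 3 was the lowest library there and the groups overlapped.

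In the edgeR fit to all 6 libraries, with TMM scaling over starts and no replicate block, the receptor genes did not pass the test at any start. Tgfbr1 encodes the type I receptor, and its first start, at position 47353222 of chromosome 4, was the most accessible of the 18. It held 57.8, 58.5 and 53.2 normalised CPM in uninjured and 42.9, 52.9 and 47.2 in injured libraries. Each injured library was below each uninjured one, but the closest values, 52.9 and 53.2, nearly met, and the log2 difference of -0.25 ± 0.08 (SE) had an adjusted p of 0.103 (edgeR). It passed as lower when scaled on 10 kb bins (-0.76, adjusted p = 0.00031, edgeR) or on total cut sites (-0.50, 0.00312), which shift all starts downwards. It also passed with a replicate block (-0.25, adjusted p = 0.0254, edgeR), although the numbers were not taken as pairs. A second Tgfbr1 start, 32994 bp downstream, was close to the level of closed DNA, with 1 to 17 cut sites per library. Tgfbr2, the type II receptor, held 19.7, 17.8 and 23.3 against 26.7, 26.6 and 18.9 normalised CPM at its single start at position 116175360 of chromosome 9. Injured replicates 1 and 2 were above all uninjured libraries and injured replicate 3 was not (0.24 ± 0.14; adjusted p = 0.343, edgeR). Without injured replicate 3 the log2 difference was 0.40 with an adjusted p of 0.0457.

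The 2 starts called lower were the first starts of Smad3 and Smad7, genes with opposite roles in the pathway. The Smad3 start, at position 63757994 of chromosome 9 on the minus strand, held 41.3, 37.8 and 38.8 normalised CPM in uninjured and 32.6, 29.97 and 28.9 in injured libraries. The groups did not overlap, and the log2 change was -0.36 ± 0.08 (SE, n = 3 per group; adjusted p = 0.0228, edgeR). Smad7, at position 75367529 of chromosome 18, held 44.7, 41.0 and 39.6 against 35.3, 33.2 and 32.1, again with no overlap (-0.31 ± 0.08; adjusted p = 0.0394, edgeR). In HBC-like cells, as CPM of all cut sites and so without TMM scaling, the means were 45.9 ± 1.9 and 32.8 ± 2.92 for Smad3 and 49.2 ± 6.12 and 34.7 ± 0.378 for Smad7 (SD, n = 3). After TMM scaling in those cells the edgeR log2 changes were -0.26 (adjusted p = 0.105) and -0.27 (adjusted p = 0.0893), so neither passed. The Smad3 call was also lost without uninjured replicate 1 (-0.34, adjusted p = 0.0942, edgeR), uninjured replicate 2 (-0.40, 0.0669) or injured replicate 2 (-0.35, 0.092). The Smad7 call held without uninjured replicate 3 and was lost without each of the other 5 libraries, with adjusted p from 0.064 to 0.139 (edgeR). Windows of 500 bp either side gave adjusted p of 0.0871 for Smad3 and 0.216 for Smad7, with negative log2 changes (edgeR). With only the first start of each gene tested, the Smad3 call held and the Smad7 call was lost.

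The downstream starts of the SMAD genes were weaker. Smad3 has 3 of them, 6917, 46025 and 91447 bp into the gene, with group means from 0.544 to 2.04 normalised CPM. Their log2 differences were 0.59, 0.78 and 1.19, the opposite sign to the first start, and none passed (adjusted p = 0.38, 0.332 and 0.222, edgeR). The Smad7 starts 1354 and 2447 bp downstream had differences of -0.47 and -0.34 (adjusted p = 0.175 and 0.331, edgeR). Both passed as lower when scaled on 10 kb bins or on total cut sites. Their differences then reached -0.99 and -0.86, with adjusted p as low as 0.000802 and 0.00153 (edgeR).

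Id1 and Id2 encode inhibitors of basic helix-loop-helix factors and are classic BMP targets. Id1, with its start at position 152736251 of chromosome 2, held 31.6, 28.5 and 34.8 normalised CPM in uninjured and 27.0, 28.6 and 27.1 in injured libraries, and the groups met at uninjured replicate 2 and injured replicate 2 (-0.20 ± 0.09; adjusted p = 0.207, edgeR). The first Id2 start, at position 25097140 of chromosome 12, held 25.0, 27.2 and 27.6 against 22.7, 23.1 and 24.9 (-0.18 ± 0.09; adjusted p = 0.247), and its second start, 1048 bp downstream, had a difference of -0.15 ± 0.08 (adjusted p = 0.286, edgeR). Neither target gene passed the test at a start with TMM scaling over starts. Id1 and both Id2 starts passed as lower when scaled on 10 kb bins (-0.65 to -0.72, adjusted p up to 0.00107, edgeR) or on total cut sites (-0.39 to -0.45, adjusted p up to 0.00853).

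**Figure D1:**
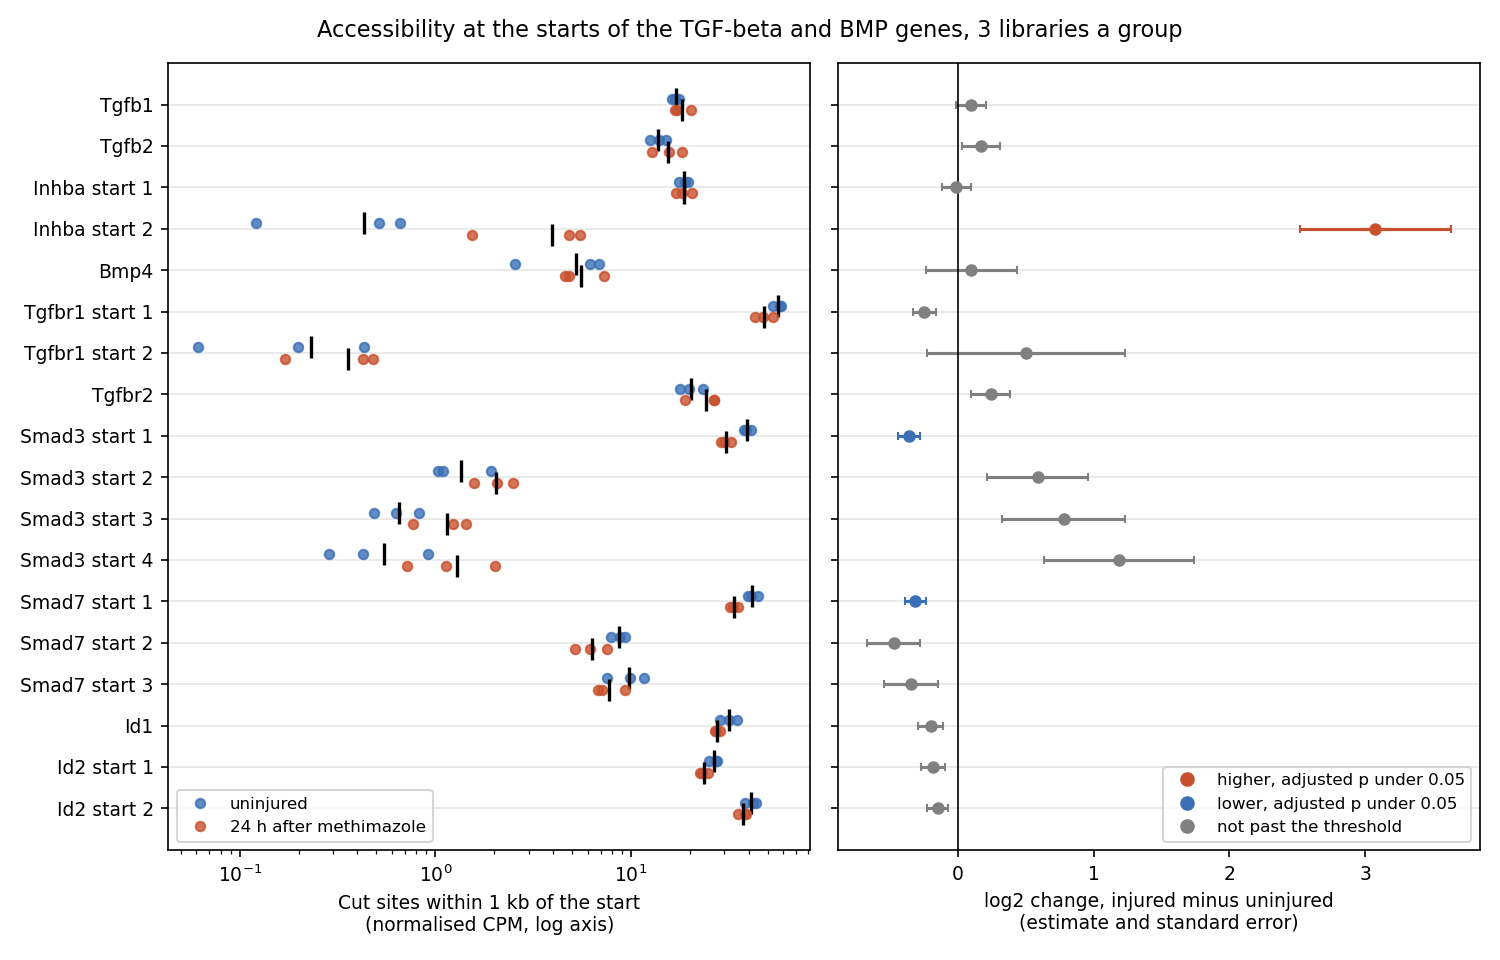
Left, cut sites within 1 kb of each of the 18 starts in normalised CPM on a log axis, 1 point per library and a bar at each group mean. Right, the edgeR log2 change with its standard error, coloured where the adjusted p is under 0.05: Inhba start 2 (3.07) is higher, Smad3 start 1 (-0.36) and Smad7 start 1 (-0.31) are lower, all relative to the median start.

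The 10 first starts were ordered by their accessibility in the 3 uninjured libraries, as a description. In uninjured libraries Tgfbr1 (56.5 ± 2.84 normalised CPM, SD, n = 3) was the highest, followed by Smad7 (41.8 ± 2.66) and Smad3 (39.3 ± 1.79), whose ranges overlapped, and by Id1 (31.6 ± 3.15) and Id2 (26.6 ± 1.37). Tgfbr2 (20.3 ± 2.78), Inhba (18.7 ± 1.03) and Tgfb1 (16.9 ± 0.752) overlapped with their neighbours, Tgfb2 followed at 13.8 ± 1.37, and Bmp4 was the lowest at 5.21 ± 2.33. All windows have the same width, so the levels of these first starts can be compared. They do not rank whole genes: the second Id2 start was more accessible than its first, at 41.2 ± 2.55 normalised CPM (SD, n = 3). The windows of these Id2 starts, which lie 1048 bp apart, overlap.

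Cell classes differed in which of these starts were open. The clusters were named from marker genes, and classes were read in libraries with at least 20 cells of them, as a description with no test. The values pool uninjured and injured libraries: 3 and 3 for HBC-like, 2 and 1 for sustentacular-like, and 3 and 1 for immature neuron and precursor-like cells. For olfactory sensory neuron-like cells they were replicate 3 of each group, the libraries that shared 34 barcodes. The Tgfbr2 start was at 27.6 ± 3.01 CPM in HBC-like cells (SD, 6 libraries) and at 8.26 ± 1.37 in sustentacular-like cells (3 libraries), 6.17 ± 4.13 in immature neuron and precursor-like cells (4 libraries) and 6.95 ± 1.9 in olfactory sensory neuron-like cells (2 libraries). The ranges did not touch, at 23.6 to 32.5 in HBC-like cells and 2.62 to 11.9 in these other named classes. In cells of unnamed clusters they were 14.2 to 24.0. The Smad3 first start was open in HBC-like cells (39.4 ± 7.46 CPM) and sustentacular-like cells (44.1 ± 8.03) and lower in the neuron-like classes (12.2 ± 4.34 and 7.19 ± 3.03). The first Inhba start showed the same division, at 21.5 ± 2.08 and 19.8 ± 3.12 against 9.18 ± 3.03 and 7.6 ± 1.95. Id2 did not: its first start held 25.4 ± 4.19, 29.3 ± 6.13, 27.2 ± 2.18 and 31 ± 1.34 CPM in the 4 classes. Class values are CPM of all cut sites. On the TMM scale the Tgfbr2 difference within HBC-like cells was 0.20 ± 0.12 (SE; adjusted p = 0.328, edgeR), near that in all barcodes.

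HBC-like cells were 4 clusters, and the groups lay in different ones. Clusters 1 and 3 held 1373 and 473 injured cells and 6 and 21 uninjured ones, and cluster 2 held 1024 uninjured and 33 injured cells. Cluster 6, of 193 cells, came mostly from uninjured replicate 3 with 167 cells. Among the leading genes were Krt16 and Krt6a, keratins of stressed epithelium, in cluster 1, and Irgm1, Tgtp1 and Cd74, interferon-response genes, in cluster 2.

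**Figure D2:**
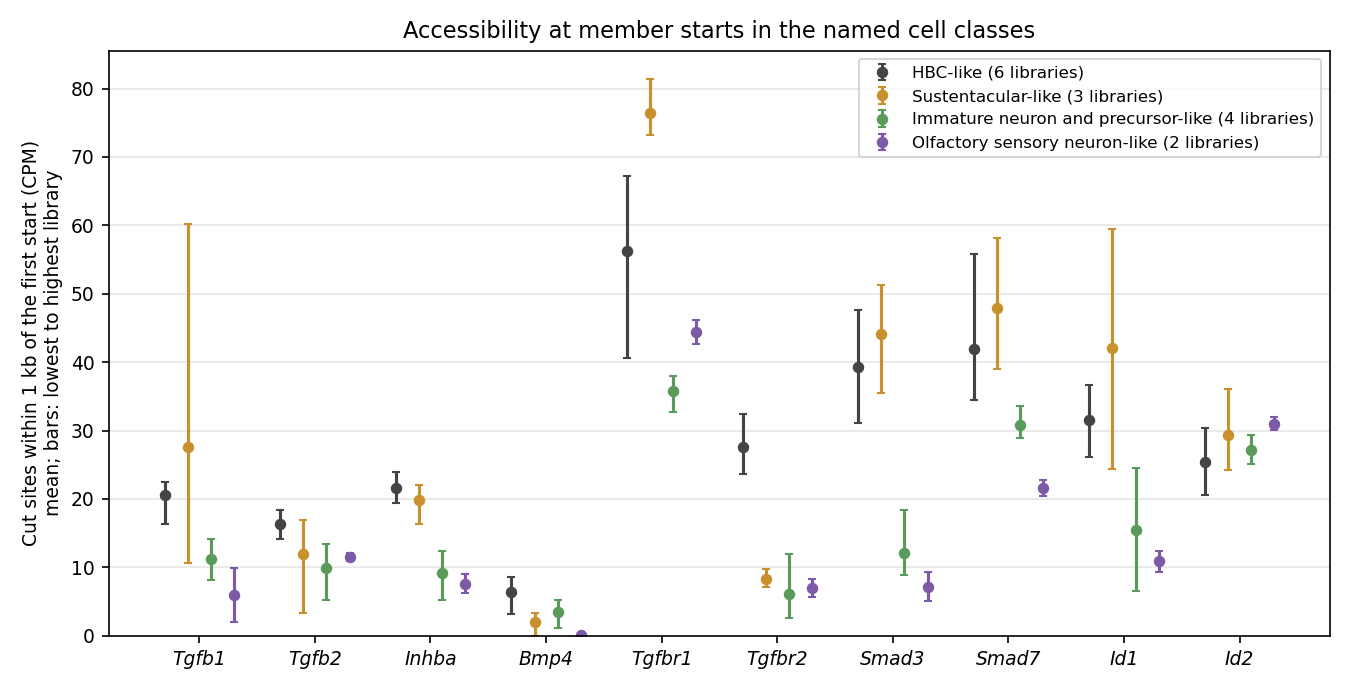
Cut sites within 1 kb of the first start of each gene in CPM, for the 4 named cell classes; points are means over the libraries with at least 20 cells of the class and bars run from the lowest to the highest library. Tgfbr2 is at 27.6 in HBC-like cells and at 6.17 to 8.26 on average in the other classes, while Id2 lies between 25.4 and 31 in all 4.

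Away from the starts, each gene body and the 50 kb on either side were read in 500 bp tiles. Tiles counted as open had a mean CPM over all 6 libraries of 5 or more times the genome's median covered tile (0.0542 CPM). A tile below this level in 1 group could so enter through the other group alone, which limits the counts, shares and tests of called tiles. Of 738 open tiles in the 10 loci 676 were tested, and 47 were higher and 14 lower after injury (edgeR, adjusted p under 0.05 over 397121 tiles of the genome). That is 6.95% and 2.07% of the tested tiles, where 4.84% and 1.66% were called over the genome, and the groups did not overlap at 25.4% of all tested tiles. The share of higher tiles in the set leans on the Smad3 locus, with 21 of 138 tested tiles (15.2%). In the other loci it ran from 0% (Id2) to 7.41% (Bmp4), on both sides of the genome's 4.84%. Adjacent tiles can report the same region, and the 47 higher tiles formed 29 runs. The member gene bodies held 28 of the higher tiles, intergenic DNA 12 and other genes 7. None of the called tiles lay in a coding exon by its midpoint. Scaled on 10 kb bins, which shifted the median of all tiles to -0.37, the counts were 30 higher and 45 lower. Without injured replicate 2 they were 15 higher and 1 lower, and without injured replicate 3 they were 71 and 16.

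Smad3 held 21 of the 47 higher tiles, all of them inside introns of the gene. They were 21 of 101 tested tiles of the gene body (20.8%), and they formed 13 runs from 13744 to 99744 bp downstream of the first start. Among 2008 genes with at least 30 tested tiles in the body, the median share called higher was 3.07%, and 28 genes had a larger share than Smad3. This minimum of 30 tiles was chosen after the values of Smad3 were known. Tgfbr2 had 3 of 37 body tiles higher (8.11%), Tgfb2 2 of 40 (5%), Smad7 1 of 51 (1.96%) and Tgfbr1 0 of 30. Every cut site of the 111228 bp Smad3 gene body was also summed with no choice of tiles, a sum added after the data were seen, and came to 123.6, 128.2 and 137.5 CPM of all cut sites in the uninjured libraries. It was 248.7, 219.8 and 177.1 in the injured ones. Every injured library was above every uninjured one, with injured replicate 3 nearest to them, and the ratio of the means was 1.66 (exact two-sided permutation p = 0.1, the smallest that 3 against 3 allows). In HBC-like cells the sums were 120.7, 141.3 and 151.3 against 276.6, 270.4 and 250.8, a ratio of 1.93. In those cells injured replicate 3 stood close to the other injured libraries. The 106 open tiles of the body alone, as a share of the cut sites in open tiles, had ratios of 1.82 and 1.99. Open tiles were kept on their mean over all 6 libraries, so tiles that were low before injury could enter through the injured ones. The share called higher and the sums over open tiles are therefore given as a description. The 47 open tiles outside the gene body had a ratio of 0.919, with overlapping groups.

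The Smad3 gene read in both directions in the same libraries: the tile next to its first start fell, and intronic tiles rose. The start tile, with its midpoint 256 bp upstream, held 23.3 ± 1.77 normalised CPM in uninjured and 16.3 ± 1.80 in injured libraries (SD, n = 3; log2 change -0.52 ± 0.12, adjusted p = 0.0287, edgeR). The call of the start tile was lost without each uninjured library (adjusted p = 0.136, 0.0943 and 0.0602), without injured replicate 2 (0.156) and with DESeq2 (0.138), with negative log2 changes. Without uninjured replicate 1, uninjured replicate 2 or injured replicate 2, 0 tiles of the Smad3 locus were called lower. This tile and the Id1 tile 1001 bp upstream are named after their values were seen. The Smad3-locus tile that fell most lay in an intron of the neighbouring gene Aagab, from 5.10, 5.21 and 3.88 to 2.18, 1.49 and 1.99 normalised CPM (-1.31 ± 0.27; adjusted p = 0.0158, edgeR). The intronic tiles were low before injury, with uninjured means from 0.10 to 5.66 normalised CPM, and the highest injured mean among them was 12.4. The largest log2 rise was in the tile chr9:63744001-63744500, which held 0, 0.18 and 0.15 normalised CPM in uninjured and 3.41, 1.72 and 0.982 in injured libraries, from 0, 6 and 5 against 139, 37 and 38 cut sites. All injured libraries were higher, injured replicate 1 by the most (3.96 ± 0.69; adjusted p = 0.00847, edgeR). The tile's uninjured mean, 0.110 normalised CPM, was below the level of an open tile, so it entered the test only through the injured libraries. Leaving out libraries changed the number of Smad3 tiles called higher from 8 (without injured replicate 2) and 11 (without injured replicate 1) to 32 (without injured replicate 3). Scaled on 10 kb bins, the Smad3 locus had 14 tiles higher and 7 lower, against 21 and 2. In HBC-like cells 27 were called, and the 21 were among them.

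**Figure D3:**
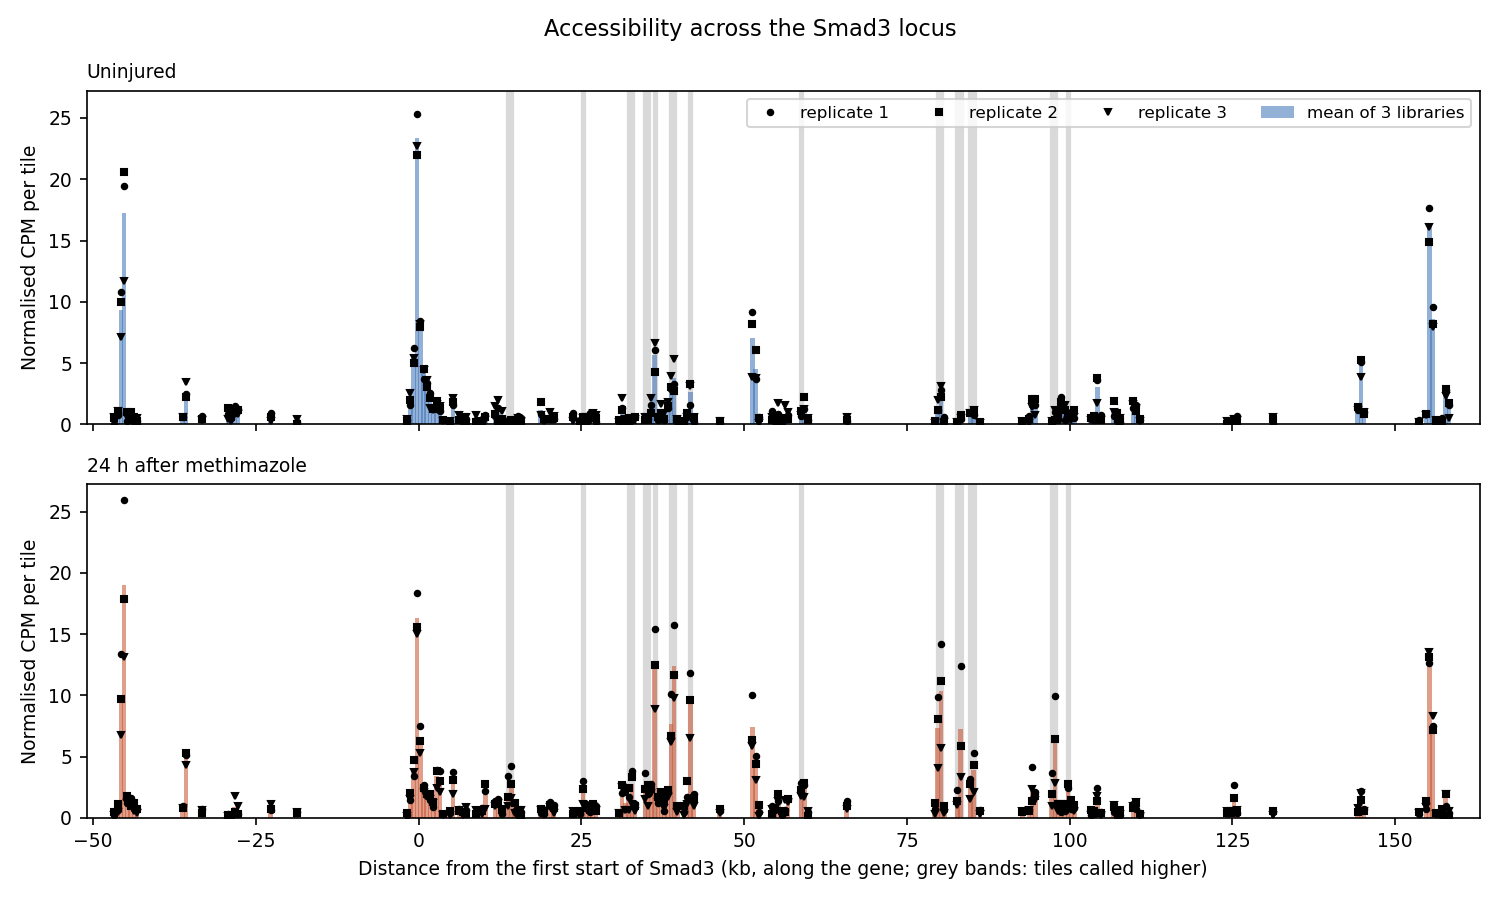
Normalised CPM in each tested 500 bp tile of the Smad3 locus against the distance from the first start along the gene; bars are group means, points the 3 libraries, and grey bands mark the 21 tiles called higher. The tile at the start falls from a mean of 23.3 to 16.3 and the marked intronic tiles rise.

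**Figure D4:**
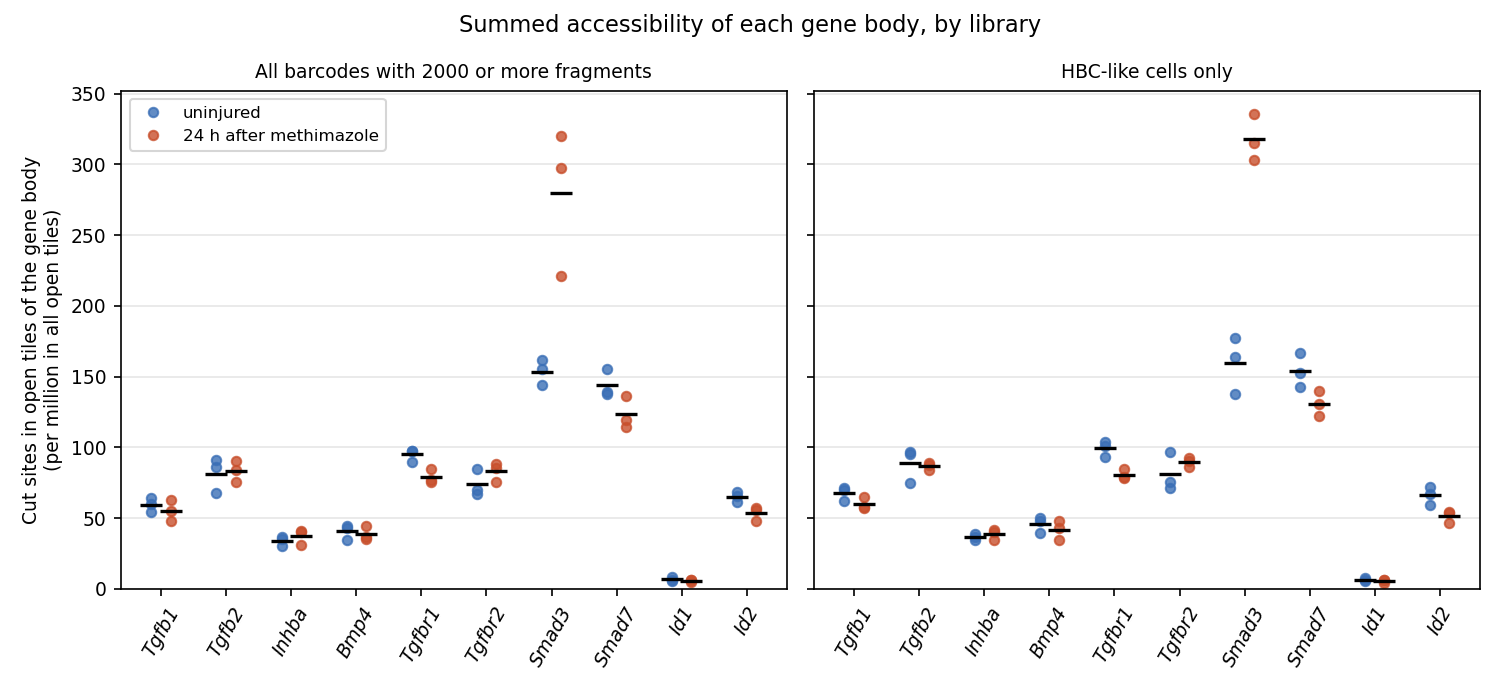
Cut sites summed over all open tiles of each gene body, in CPM of the cut sites in open tiles, by library, in all barcodes (left) and in HBC-like cells (right), with black bars at the means. Smad3 is the gene with the largest ratio, 1.82 on the left and 1.99 on the right.

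Sums of every cut site gave smaller ratios for the other gene bodies, from 0.746 for Tgfbr1 to 1.07 for Inhba. The sums of Tgfbr1 (0.746), Smad7 (0.784) and Id2 (0.758) were lower in every injured library, each with the same smallest permutation p of 0.1. Over the cut sites in open tiles these 3 ratios were 0.833, 0.857 and 0.826. The share of all gene bodies whose groups did not overlap was not computed, nor that of the open tiles outside the bodies. The groups did not overlap at 27.8% of all tested starts and 25.4% of all tested tiles, so separation alone is not particular to these loci. Scaled on total cut sites, 7103 of 24623 starts were called lower, so falls on that scale were common and not particular to these genes. Sums over Tgfb1, Tgfb2, Inhba, Bmp4, Tgfbr2 and Id1 overlapped between the groups on both scales. Outside the Tgfbr1 body the 58 open tiles summed higher in every injured library, with a ratio of 1.37 (1.54 in HBC-like cells), and they include the called tiles in and near Col15a1. Outside the bodies of Id1 (77 open tiles, ratio 0.834, 0.873 in HBC-like cells) and Smad7 (51 open tiles, 0.912 and 0.921) the open tiles summed lower in every injured library.

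At the ligands, the called tiles were mostly away from the ligands' own starts. The Tgfb2 body held a pair of adjacent tiles that rose 29739 and 30239 bp into the gene, in an intron, the larger of them from 0.258, 0.599 and 0.572 to 3.07, 3.81 and 1.76 normalised CPM (2.51 ± 0.43; adjusted p = 0.00802, edgeR; 0.0594 without injured replicate 2). Another 4 intronic tiles fell, and the largest fall, 74739 bp from the start, was from 4.65, 4.37 and 1.77 to 0.589, 0.233 and 0.517 (-2.94 ± 0.47; adjusted p = 0.00616). The groups did not overlap at either tile, which was a condition for naming them. At Inhba the single called tile of 16 tested was chr13:16014001-16014500, inside the window of the internal start described above, and it rose from 0.129, 0.359 and 0.421 to 4.34, 3.07 and 1.14 normalised CPM (adjusted p = 0.00954, edgeR; 0.0571 without injured replicate 2). At Tgfb1 the 4 higher tiles lay 18748 to 25248 bp downstream of the start, beyond the gene and nearer to the start of Ccdc97, and the one that rose most went from 0.387, 0.509 and 0.511 to 4.20, 3.63 and 2.35 normalised CPM (2.82 ± 0.37; adjusted p = 0.00346, edgeR). The single lower tile of that locus lay 7 bp from the start of another gene, Hnrnpul1 (-0.45 ± 0.12; adjusted p = 0.0467, edgeR). It lost its call without each library in turn (0.052 to 0.255) and in 4 of 11 other alternatives (up to 0.239). At Bmp4 the 2 higher tiles were intergenic, 17581 and 18081 bp upstream. The call of the nearer Bmp4 tile (adjusted p = 0.0343, edgeR) was lost on 10 kb bins (0.0538) and without uninjured replicates 1 or 2 or injured replicates 1 or 2 (0.106 to 0.155). Its uninjured mean, 0.173 normalised CPM, was below the level of an open tile, so it entered the test only through the injured libraries.

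At the receptors, Tgfbr2 had 5 higher tiles, 3 of them in its introns and 2 of them 46390 and 46890 bp upstream. The largest rise was 49610 bp into the gene, from 0.129, 0.269 and 0.15 to 1.67, 1.16 and 0.362 normalised CPM, with the groups apart but injured replicate 3 close to the uninjured libraries (2.46 ± 0.65; adjusted p = 0.0458, edgeR). This call was lost on 10 kb bins (0.0608) and without each library but injured replicate 3 (0.0902 to 0.21). The tile's uninjured mean, 0.183 normalised CPM, was below the level of an open tile, so only the injured libraries brought it into the test. The 6 higher tiles of the Tgfbr1 locus were all nearer to an internal annotated start of Col15a1, a collagen gene upstream, and 5 of them lay in that gene. The nearest called tile to the Tgfbr1 start was 972 bp upstream and fell from 9.36, 8.47 and 6.56 to 4.66, 4.65 and 3.49 normalised CPM (-0.93 ± 0.21; adjusted p = 0.0232, edgeR), a call lost without uninjured replicate 1 (0.125), uninjured replicate 2 (0.114) or injured replicate 2 (0.0928).

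Smad7 had 3 higher and 2 lower tiles of 100 tested. The largest rise, 17779 bp upstream, was from 0.129, 0.419 and 0.241 to 1.35, 1.07 and 1.01 normalised CPM (2.03 ± 0.50; adjusted p = 0.0348, edgeR). It lost its call in 4 of 6 fits that left out a library (adjusted p up to 0.136, edgeR). Other Smad7 tiles fell. An intronic tile 23221 bp from the Smad7 start fell from 9.87, 7.25 and 4.39 to 3.66, 2.79 and 3.18 normalised CPM (-1.14 ± 0.28; adjusted p = 0.0354, edgeR). That call was lost without uninjured replicate 1 (0.207), uninjured replicate 2 (0.143), injured replicate 1 (0.0632) or injured replicate 2 (0.173). At Id1 a pair of adjacent tiles 9001 and 9501 bp upstream rose, the farther from 2.06, 1.56 and 1.71 to 9.92, 7.16 and 4.94 (2.06 ± 0.29; adjusted p = 0.00396), and a tile 1001 bp upstream fell from a mean of 24.5 ± 3.07 to 15.9 ± 2.03 (SD, n = 3; log2 change -0.62 ± 0.13, adjusted p = 0.0212, edgeR). That falling tile lost its call without uninjured replicate 2 or injured replicate 2. The Id1-locus tile that fell most lay upstream, in a UTR of the gene H13, from 16.4, 16.5 and 13.6 to 9.28, 6.70 and 8.25 (-0.94 ± 0.16; adjusted p = 0.00742, edgeR; 0.0521 without uninjured replicate 2 and 0.0541 without injured replicate 2). Id2 had 1 called tile of 37, lower, 3110 bp upstream (4.90, 4.61 and 4.72 against 2.11, 2.09 and 3.10; -0.95 ± 0.25; adjusted p = 0.0452, edgeR). The Id2 call was lost in HBC-like cells (0.0942), with the open-tile filter on barcodes (0.0759), with no filter on low counts (0.0713) and without each library but injured replicate 3 (0.0779 to 0.202). The tiles that rose or fell most in each locus were chosen only among called tiles whose groups did not overlap. Their separation is therefore a condition of the choice and not a result.

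**Figure D5:**
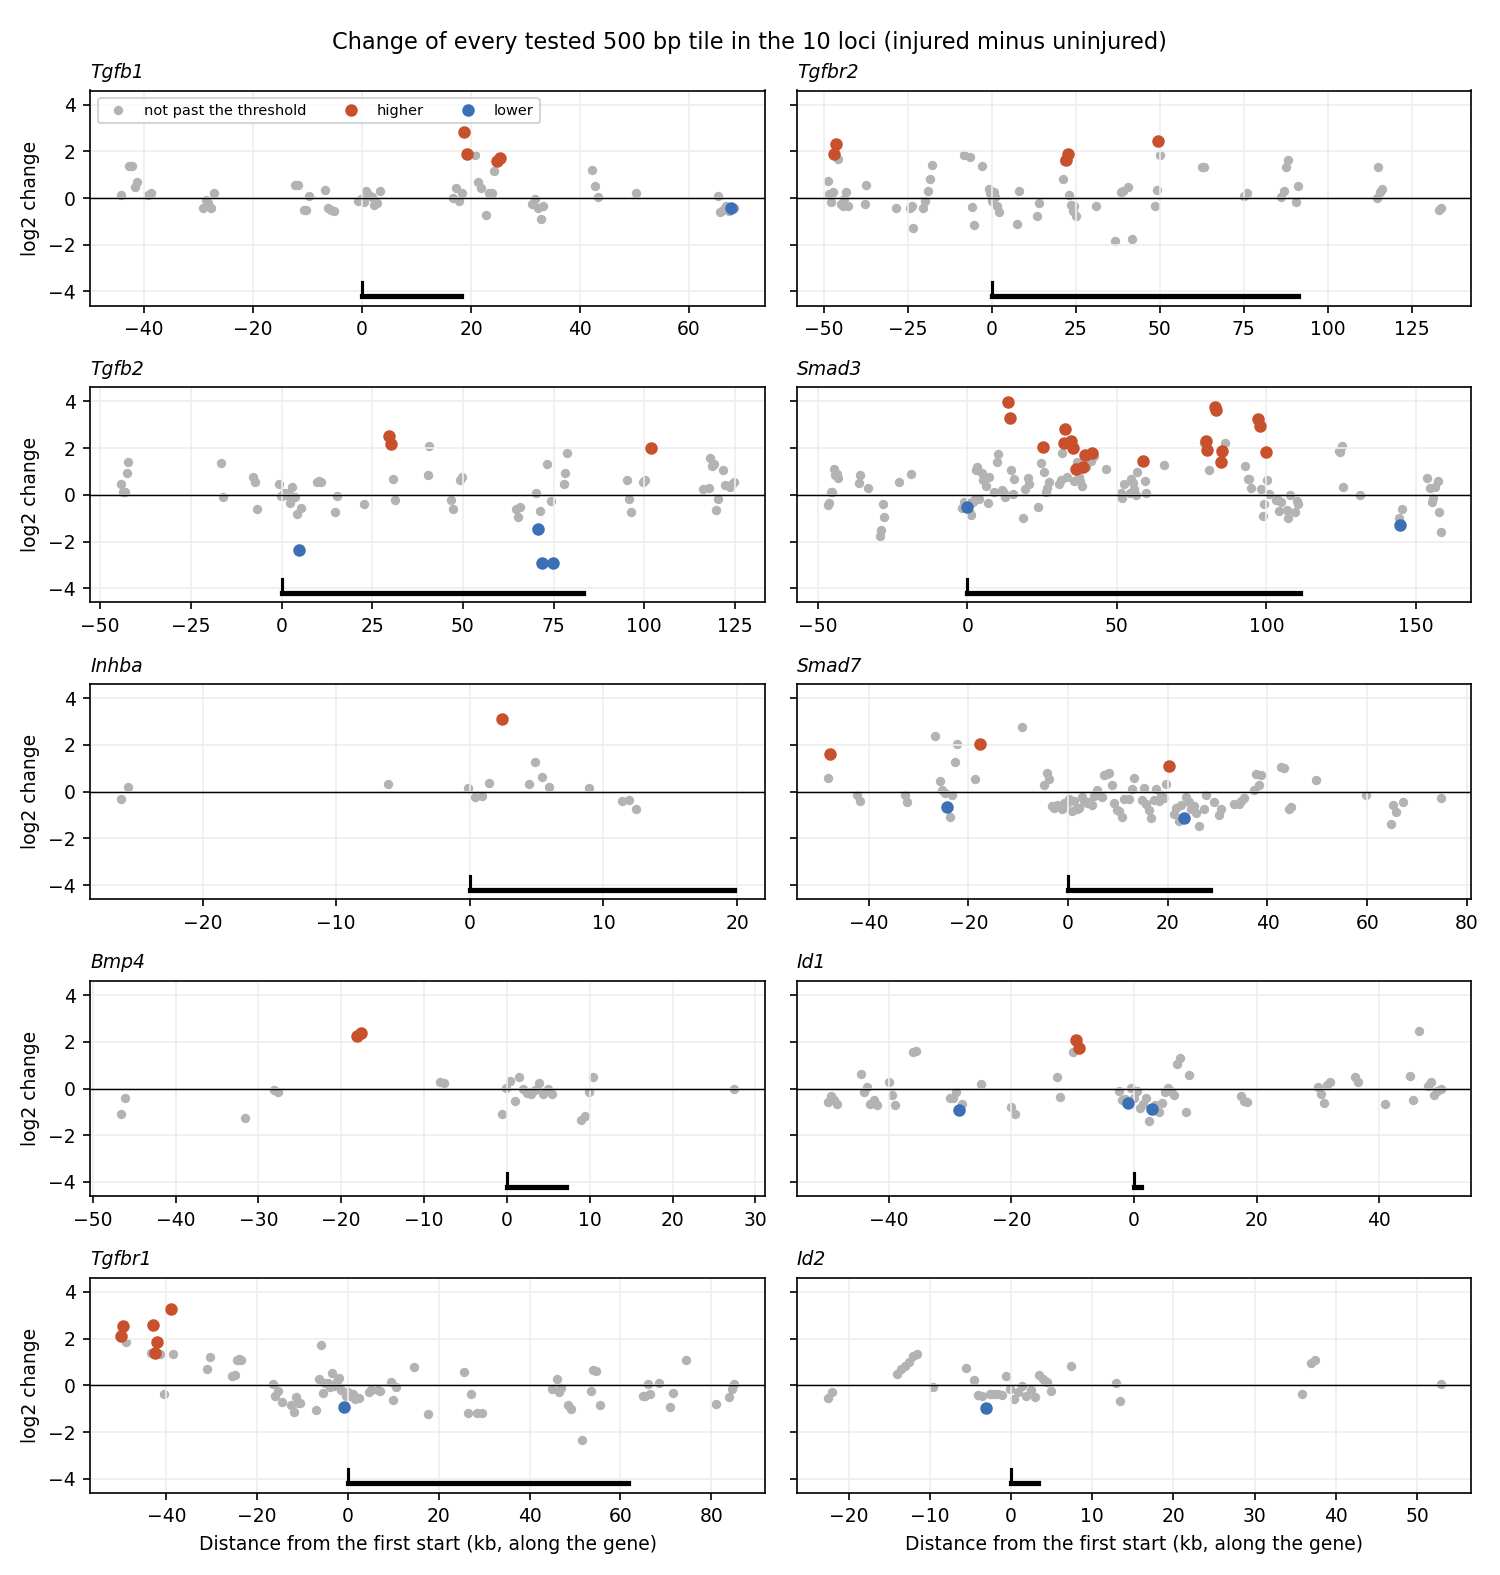
The log2 change of every tested 500 bp tile in the 10 loci, injured minus uninjured, against the distance in kb from the first start along each gene; the black line marks the gene body and colours mark tiles with an adjusted p under 0.05. Of the 47 higher tiles 21 are in the Smad3 body, and the others are spread over 8 loci.

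The sequences of tiles that carry these changes are shown with matches to a pair of motifs in capitals. These are the AP-1 consensus TGANTCA, bound by Fos and Jun dimers, and the flanked SMAD-binding element CAGACA, both searched on both strands in the reference genome GRCm38. Each is the 300 bases of the tile with the most cut sites, on the plus strand. The first 4 are from tiles that rose and hold an AP-1 match, the Inhba tile rose with no AP-1 match, and the Tgfb2 tile fell. They are a selection of the named tiles. Among those not printed, the 300 bases of the rising Tgfb1 and Bmp4 tiles hold 0 AP-1 matches, and those of the rising Tgfb2 tile hold 2.
Smad3 intron, chr9:63744001-63744300: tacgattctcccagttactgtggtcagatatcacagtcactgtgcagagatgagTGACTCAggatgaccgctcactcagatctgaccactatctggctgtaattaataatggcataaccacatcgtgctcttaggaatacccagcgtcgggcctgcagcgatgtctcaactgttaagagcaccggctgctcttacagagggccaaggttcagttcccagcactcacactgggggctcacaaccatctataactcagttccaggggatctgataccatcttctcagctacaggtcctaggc
Tgfbr2 intron, chr9:116125621-116125920: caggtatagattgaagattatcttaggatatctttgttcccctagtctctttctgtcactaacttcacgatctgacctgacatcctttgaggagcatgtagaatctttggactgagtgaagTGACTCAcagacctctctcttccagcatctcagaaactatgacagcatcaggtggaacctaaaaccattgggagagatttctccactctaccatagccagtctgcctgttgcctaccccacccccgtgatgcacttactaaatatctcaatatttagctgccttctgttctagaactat
Upstream of Id1, chr2:152726681-152726980: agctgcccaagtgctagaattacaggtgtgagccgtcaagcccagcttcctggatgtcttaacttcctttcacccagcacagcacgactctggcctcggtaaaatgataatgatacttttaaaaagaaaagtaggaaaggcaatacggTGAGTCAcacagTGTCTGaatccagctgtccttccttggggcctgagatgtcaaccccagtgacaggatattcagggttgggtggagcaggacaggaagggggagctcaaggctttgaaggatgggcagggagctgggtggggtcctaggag
Between Col15a1 and Tgfbr1, chr4:47314011-47314310: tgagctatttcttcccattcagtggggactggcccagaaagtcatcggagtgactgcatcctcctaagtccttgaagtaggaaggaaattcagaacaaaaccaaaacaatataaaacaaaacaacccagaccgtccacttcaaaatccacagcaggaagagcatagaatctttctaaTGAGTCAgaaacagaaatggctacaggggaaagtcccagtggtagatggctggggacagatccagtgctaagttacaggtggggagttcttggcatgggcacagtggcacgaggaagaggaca
Inhba internal start, chr13:16014201-16014500: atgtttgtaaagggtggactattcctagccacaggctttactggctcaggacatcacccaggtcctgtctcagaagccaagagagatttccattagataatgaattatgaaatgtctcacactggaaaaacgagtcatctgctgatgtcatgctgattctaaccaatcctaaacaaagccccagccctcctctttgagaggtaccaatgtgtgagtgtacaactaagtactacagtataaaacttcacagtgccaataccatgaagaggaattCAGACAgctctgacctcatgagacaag
Tgfb2 intron, lower after injury, chr1:186631161-186631460: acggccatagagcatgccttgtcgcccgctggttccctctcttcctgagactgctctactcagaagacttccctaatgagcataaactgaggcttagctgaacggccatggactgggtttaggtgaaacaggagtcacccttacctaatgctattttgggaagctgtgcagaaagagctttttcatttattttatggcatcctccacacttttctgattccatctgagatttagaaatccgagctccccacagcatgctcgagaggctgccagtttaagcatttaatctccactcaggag

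AP-1 matches were found in 26 of the 47 higher tiles and 1 of the 14 lower tiles of the 10 loci. Over the genome 20.3% of tested tiles held one, 61.0% of those called higher and 7.12% of those called lower. In the Smad3 locus 9 of the 21 higher tiles and 17 of the 115 tiles that were not called held a match. The flanked SMAD-binding element was in 16 of the 47 higher and 4 of the 14 lower tiles, and in 39.9% of all tested tiles, 42.5% of the higher and 34.4% of the lower. The first 7 letters of the SMAD palindrome, GTCTAGA, which share GTCT with that element, were in 5 of the 47 higher tiles and 4.39% of all. The GC-rich SMAD site GGCGCC was in 0 of the 47 and 3 of the 14, and in 5.55% of all tiles, 1.67% of the higher and 12.9% of the lower. The TEAD motif ACATTCC was in 4 of the 47 (7.72% of all tiles) and the CRE core TGACGT in 4 of the 47 (5.80%). A match describes letters and not a bound factor.

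The Smad3 promoter is shown because its start fell while its introns rose. RefSeq promoters on the same build matched 8 of the 10 genes, and Smad7 and Id1 are not shown. The 250 bases before the Smad3 start, on the minus strand, hold none of the 6 motifs.
Smad3 promoter, chr9:63757995-63758244: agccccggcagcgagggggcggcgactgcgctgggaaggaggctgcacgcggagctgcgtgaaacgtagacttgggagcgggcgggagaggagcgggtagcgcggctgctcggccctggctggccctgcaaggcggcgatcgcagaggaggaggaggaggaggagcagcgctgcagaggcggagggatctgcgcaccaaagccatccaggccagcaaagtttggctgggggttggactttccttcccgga

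Of 77 other genes of the pathway, 76 had a tested start, and 4 were higher and 5 lower after injury at 115 starts tested, with a median log2 change of 0.05. Over all starts 2.47% were higher and 2.34% lower, so these counts are near the background and the starts below are given as single starts. Among the 17 inhibitors and regulators, the second start of Smurf1, an E3 ubiquitin ligase that removes SMADs and receptors, rose from 0.487, 0.514 and 0.747 to 12.8, 8.63 and 4.42 normalised CPM with no overlap (3.85 ± 0.40; adjusted p = 0.000781, edgeR). It kept its call without each library in turn, with adjusted p up to 0.013. The far more accessible first start of Smurf1 held 22.5 ± 2.54 and 19.1 ± 1.73 normalised CPM (SD, n = 3), with a difference of -0.24 (adjusted p = 0.221, edgeR). Fst, which encodes the activin-binding protein follistatin, rose from 9.91 ± 0.625 to 15.6 ± 2.06 (SD, n = 3; log2 change 0.65, adjusted p = 0.0197). The starts of Ski, the third of 4 of Tgif1 and the first of Zfyve9 fell by 0.38, 0.43 and 0.35 on the log2 scale. The more accessible first and second starts of Tgif1 had differences of -0.02 and 0.08 (adjusted p = 0.904 and 0.652, edgeR). Ski and Tgif1 encode repressors of SMAD-driven transcription and Zfyve9 a protein that presents SMADs to the receptor.

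Of the 9 genes for storage and release of latent TGF-beta, the first start of Ltbp4 (0.99, from 6.31 ± 0.868 to 12.7 ± 2.53 normalised CPM, SD, n = 3) and the second start of Ltbp3 (0.96, from 6.03 ± 1.33 to 11.6 ± 0.815) rose. Both encode proteins that bind latent TGF-beta in the matrix. The more accessible second start of Ltbp4 had a difference of 0.05 and its start 3 had 0.27 (adjusted p = 0.813 and 0.367, edgeR). A second start of Itgb6, part of an integrin that activates it, fell by 0.51. Of the 11 other receptors Acvr2b, an activin receptor, fell by 0.37, and among the 21 other ligands, 6 other SMADs and 13 other targets no start passed (edgeR). At an unadjusted p under 0.05 the counts over all starts were 2499 higher and 2988 lower. Fst, Ltbp3 and Ltbp4 lost their calls when starts were scaled on 10 kb bins (adjusted p = 0.634, 0.139 and 0.0858, edgeR), and leaving out single libraries lost most of the calls. Itgb6 and Acvr2b lost theirs without each library but injured replicate 3, and Fst, Tgif1, Ski and Zfyve9 without uninjured replicates 1 or 2 or injured replicates 1 or 2. Ltbp3 lost its call without uninjured replicate 2 or injured replicates 1 or 2, and Ltbp4 without uninjured replicate 1 or injured replicates 1 or 2. The part of the shifts in gland, sustentacular and mesenchymal markers in any of these changes was not tested. In HBC-like cells the calls of Smurf1, Ltbp4, Ltbp3, Fst, Itgb6, Tgif1, Ski and Acvr2b passed as well, and that of Zfyve9 did not (adjusted p = 0.0648, edgeR).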

How the data were processed

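Single-cell ATAC-seq fragments were analysed from 3 uninjured and 3 injured libraries. Alignment to mm10 and Cell Ranger 2.0.0 are named per the submitters' processing notes, and software version 1.2.0 per the file headers of the deposited peak matrices, which were not used. The deposited fragment files list, per barcode, each fragment's ends and its count of read pairs. Both ends were taken as cut sites, once per fragment, and summed per library over barcodes with at least 2000 fragments. Features were windows of 1000 bp either side of 32998 starts of protein-coding genes (GRCm38, GENCODE M21; starts under 1000 bp from a kept one dropped) and 443384 open tiles of 500 bp.

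Counts were tested with edgeR 4.0.16 (R 4.3.3; TMM, filterByExpr with a minimum of 10, robust quasi-likelihood F-test, Benjamini-Hochberg, threshold 0.05), all 6 libraries and no covariate; DESeq2 1.42.0 was an alternative. The SE is the log2 change divided by the square root of F. Cells were clustered with scikit-learn 1.9.0, igraph 0.11.9 and leidenalg 0.10.2 (Python 3.11.15; 4397 cells with at least 20% of cut sites in open tiles, 10 clusters at resolution 0.5); doublets were not called or removed. On simulated data with a biological coefficient of variation of 0.3, the test of starts recovered 15 of 93 changes of log2 1 and 84 of 93 of log2 2 among 23958 starts, and the test of tiles 0 of 92 and 44 of 83 among 369679 tiles. The fitted coefficients were 0.174 for starts and 0.367 for tiles, so the simulation was noisier than the starts and less noisy than the tiles.

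The members and gene lists were chosen with earlier results of these data known. Named tiles were, per locus, the called ones without overlap that rose or fell most, and other pathway genes were named where a start was called at a mean CPM of at least 1. Alternatives varied the barcodes, scaling, filter, test, window and libraries. The edgeR p-values set a group difference against the variation between these libraries, with dispersion estimates shared over features. Permutation p-values rank the difference of means among relabelings of the libraries.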

Additional observations from a re-analysis of the deposited data

How the results depend on the processing

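The first starts of Smad3 and Smad7 stayed lower and the second Inhba start stayed higher under every alternative that tested them, though not always past the threshold. HBC-like cells gave 993 starts higher, 0 of the 18 starts lower, 7 other pathway genes higher and 12042 tiles lower. Without barcodes over 100000 fragments, 378 starts, 1 of the 18 starts and 2 pathway genes were lower. TMM factors from 10 kb bins gave 11187 starts, 10 of the 18, 42 pathway genes and 19971 tiles lower, 1 pathway gene higher, and 30 higher and 45 lower tiles in the 10 loci. Total cut sites gave 7103 starts, 8 of the 18 and 32 pathway genes lower. DESeq2 called 954 starts higher, 1032 lower and 7 pathway genes higher. Windows of 500 bp gave 320 starts, 0 of the 18 and 1 pathway gene lower. The first start of each gene alone, with fewer starts tested, gave 344 higher and 272 lower, 0 and 1 of the members' starts, and 2 and 1 pathway genes.

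Some differences changed sign. Inhba start 1 was 0.0015 with the open-tile filter, 0.025 at 5000 fragments, 0.0092 without the large barcodes, 0.076 with 500 bp windows and 0.021 with first starts only. On 10 kb bins it stayed negative and passed as lower (-0.52, adjusted p = 0.00803, edgeR). With 10 kb bins Tgfb1 was -0.42 (adjusted p = 0.0372, edgeR), Tgfb2 -0.35, Bmp4 -0.43, Tgfbr1 start 2 -0.034 and Tgfbr2 -0.29, and with total cut sites Tgfb1 was -0.16, Tgfb2 -0.087, Bmp4 -0.16 and Tgfbr2 -0.020. Leaving out each library in turn gave 130 to 1082 starts higher and 62 to 977 lower, 0 to 2 of the 18 starts in each direction, 1 to 6 pathway genes higher and 0 to 6 lower, 4343 to 33067 tiles higher and 491 to 10636 lower, 15 to 71 and 1 to 16 tiles of the 10 loci, 8 to 32 and 0 to 3 tiles of the Smad3 locus, and log2 differences of -0.084 to 0.051 at Inhba start 1 and -0.25 to 0.33 at Bmp4. The causes of these shifts were not tested.

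Replicate numbers share only an age in the labels. Deviations of same-numbered libraries correlated at 0.0763, 0.19 and 0.245 across starts. Injured replicate 1 correlated best with uninjured replicate 2 (0.136), and all other differently numbered libraries correlated negatively, from -0.263 to -0.0163. The main fit did not take the numbers as pairs, and whether they are pairs was not settled. With the replicate block the first Tgfbr1 start passed as lower (-0.25, adjusted p = 0.0254, edgeR). The replicate block gave 1131 starts higher and 1716 lower, 7 pathway genes higher, 10920 tiles lower and 22 lower tiles in the 10 loci. Its fitted biological coefficient of variation for starts was 0.128, against 0.174 without the block. Depth limits the weak windows: the second Tgfbr1 start held 1 to 17 cut sites per library.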
